A study of Homo sapiens with 6 samples.

Results

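Gene expression in SKNMC cells carrying either of 2 forms of the transcription factor NFIB was compared with that in cells carrying an empty vector (EV). The question behind the comparison is which genes move with NFIB whether or not its C-terminal intrinsically disordered region (IDR) is present. SKNMC is an established human Ewing sarcoma cell line. All cells were infected with lentivirus and selected with puromycin, so the controls carry a vector too. The 3 groups, of 2 libraries each, were EV, NFIB WT (full-length, V5-tagged NFIB) and NFIB ΔIDR (the same protein without the disordered region). The NFIB WT and NFIB ΔIDR libraries were taken as one group of 4 and set against the 2 EV libraries. A gene was counted as separated when its level in all 4 construct libraries lay above, or in all 4 lay below, its level in both EV libraries. Of 22604 genes with counts, 13501 were expressed highly enough to be tested. Among these, 844 genes lay above EV in all 4 construct libraries (6.25% of the genes tested) and 911 lay below (6.75%). If all 6 libraries were interchangeable, each direction would hold a share of 0.0667 of the genes, because there are 15 splits of 4 against 2. Both observed shares are near that, so separation alone does not mark a gene as responding. No source used here says whether the replicate libraries came from separate infections, so p values measure only the spread between these libraries. The constructs carry a tag, and an effect of the tag cannot be told apart from one of NFIB.

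NFIB belongs to the nuclear factor I family, whose members bind DNA as dimers at a palindromic site with TGGCA half-sites. The N-terminal part of the protein binds DNA and holds the dimer together, and the C-terminal part acts on transcription. Intrinsically disordered regions are stretches without a fixed fold, through which many transcription factors associate with each other and with cofactors. In development NFIB acts in brain and lung, among other tissues. Ewing sarcoma cells are driven by a fusion of EWSR1 to an ETS factor, most often FLI1, which activates some genes and represses others, many of the latter typical of mesenchymal cells.

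The libraries held between 6664231 and 8465572 counts. Ewing sarcoma markers were present in every library, with 11 of the listed markers measured and a summed level of 2807 to 3424 CPM (counts scaled to the depth of the library). Of these 11, 1 lay above EV in all 4 construct libraries and 4 lay below (36.4%, beside 6.75% of all genes). Between the constructs 5 of them differed at an edgeR adjusted p under 0.05, beside 10.7% of all genes. Fibroblast markers summed to 722 and 748 CPM in EV, to 1013 and 1015 CPM in NFIB WT and to 675 and 684 CPM in NFIB ΔIDR. None of the 13 tested was separated, and 10 of them differed between the constructs. For epithelial markers the sums were 215 and 250 CPM in EV against 190 to 350 CPM with the constructs. Of 4 tested, 0 were separated and 2 differed between the constructs. Blood markers had 2 members tested and summed to 263 and 264 CPM in EV against 257 to 322 CPM, nearly all of it from PTPRC. The lineage markers CD3E, CD14, CD34 and MS4A1, and the epithelial cadherin CDH1, had at most 3 counts in any library. Some other listed members had more. The keratin KRT18 gave most of the epithelial sum, at 175 to 321 CPM. EPCAM, KRT8, ESRP1 and CD79A had 20 to 84 counts in each library. The part of all these markers in the results was not tested. The NFIB WT libraries differed from each other more than the other pairs did. Over the 9016 genes at 10 CPM or more, the SD of the log2 difference between replicates was 0.28 for NFIB WT, against 0.15 for EV and 0.15 for NFIB ΔIDR. Replicate 1 of NFIB WT lay farthest out on the first principal component, which held 56.1% of the variance.

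NFIB, at chr9:14081842-14398982 (hg19, minus strand), was the gene with the widest separation. Its level was 176 and 145 CPM in EV, 969 and 1051 CPM in NFIB WT, and 2227 and 2332 CPM in NFIB ΔIDR. Both constructs were therefore far above EV without overlap, and NFIB ΔIDR was above NFIB WT. The counts combine the cells' own NFIB with the introduced one. Over the 4 construct libraries the mean was 1645 ± 735 CPM (SD, n = 4) against 160 ± 22.0 CPM (SD, n = 2) in EV, a log2 difference of 3.36 (95% interval 2.44 to 4.28). With the 4 libraries as one group the gap between NFIB WT and NFIB ΔIDR counted as spread, and NFIB had an adjusted p of 0.168 in edgeR's quasi-likelihood test (unadjusted 1.25e-05). With the constructs as separate groups and their mean set against EV, the adjusted p was 4.85e-08. NFIB WT was lower than NFIB ΔIDR by a log2 difference of -1.17 (95% interval -1.38 to -0.96, edgeR adjusted p = 0.000191). Every comparison below therefore sets cells with more NFIB ΔIDR transcript beside cells with less NFIB WT transcript.

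MMP1, the interstitial collagenase, lies at chr11:102660132-102668891 (hg19) and was barely detected in EV, with 2 counts in each library. NFIB WT gave 11 and 10 counts and NFIB ΔIDR gave 18 and 13. In CPM these were 0.273 and 0.239 in EV, 1.65 and 1.29 in NFIB WT, and 2.44 and 1.92 in NFIB ΔIDR, so the groups did not overlap. MMP1 passed the filter on low counts through the construct libraries. Summed over libraries, its level with the constructs was 7.13 times that in EV, with a 95% interval of 2.63 to 27.2 that covers counting error only. The fit gave a log2 difference of 2.76, which is a description because of how MMP1 passed the filter. FN1, the matrix glycoprotein fibronectin, lies at chr2:216225163-216300796 (hg19). It measured 347 and 371 CPM in EV, 400 and 463 CPM in NFIB WT, and 568 and 609 CPM in NFIB ΔIDR. All 4 construct libraries lay above EV, with NFIB ΔIDR above NFIB WT and no overlap between any of the 3 groups. The log2 difference of both constructs from EV was 0.51 (95% interval 0.15 to 0.86, edgeR unadjusted p = 0.0102), and NFIB WT was below NFIB ΔIDR by a log2 difference of -0.45 (edgeR adjusted p = 0.0136).

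**Figure D1:**
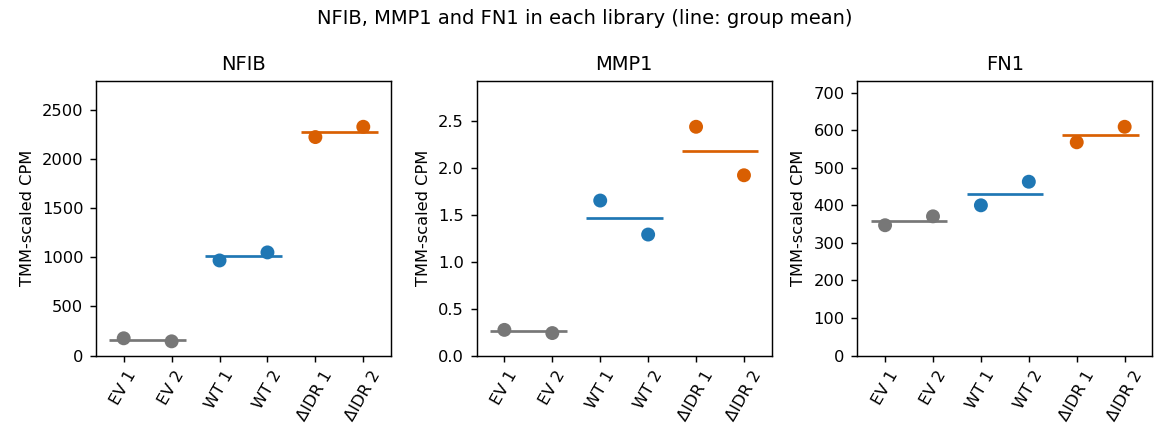
TMM-scaled CPM of NFIB, MMP1 and FN1 (y axes, from 0) in each of the 6 libraries (x axis), with a line at each group mean. All 4 construct libraries lie above both EV libraries for each gene, and for NFIB and FN1 the NFIB ΔIDR libraries lie above those of NFIB WT.

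Across all genes, the pooled comparison gave few calls with all 6 libraries. In edgeR's quasi-likelihood test of 4 libraries against 2, with Benjamini-Hochberg adjustment over 13501 genes, 0 genes were higher (0%) and 0 were lower (0%) at an adjusted p under 0.05. At an unadjusted p under 0.05, 229 genes were higher (1.7%) and 190 were lower (1.41%). With the mean of both constructs set against EV in a fit with 3 groups, 1 gene was higher (0.00741%), which was NFIB, and 0 genes were lower (0%), while 568 were higher and 531 lower at an unadjusted p under 0.05. DESeq2 called 1 gene higher, also NFIB, and 0 lower, with 113 and 103 at an unadjusted p under 0.05. The interval of the pooled change lay within 1.5-fold in either direction for 8301 genes (61.5%) and within 2-fold for 11479 genes (85%). At 10 CPM or more, the interval reached a median of 0.29 on the log2 scale, or 1.22-fold, to either side of the estimate. An exact permutation test of a single gene has 15 splits of 4 against 2 libraries, so its smallest p is 0.0667 and it cannot reach 0.05.

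The number of calls turned on the NFIB WT pair. Leaving out NFIB WT replicate 1 and setting the mean of both constructs against EV in the 3-group fit gave 174 genes higher (1.29%) and 225 lower (1.67%). Without NFIB WT replicate 2 in its place, 643 were higher (4.76%) and 958 lower (7.1%). Leaving out any of the EV or NFIB ΔIDR libraries gave 1 gene higher, NFIB, and 0 lower in the same fit. In the fits without an NFIB WT library, the remaining one is assumed to vary like the EV and NFIB ΔIDR pairs. The fitted biological coefficient of variation fell to 0.0358 from 0.0776. The tests in these fits also treat the spread as known without error, although it was estimated from few libraries. These fits were added after the data had been seen. Of the genes called without replicate 1, 81 of the 174 and 130 of the 225 were separated in all 6 libraries. Without replicate 2 the same held for 226 of the 643 and 323 of the 958. Calls given below for these fits hold only under these assumptions about the spread. What sets replicate 1 and replicate 2 of NFIB WT apart was not tested.

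**Figure D2:**
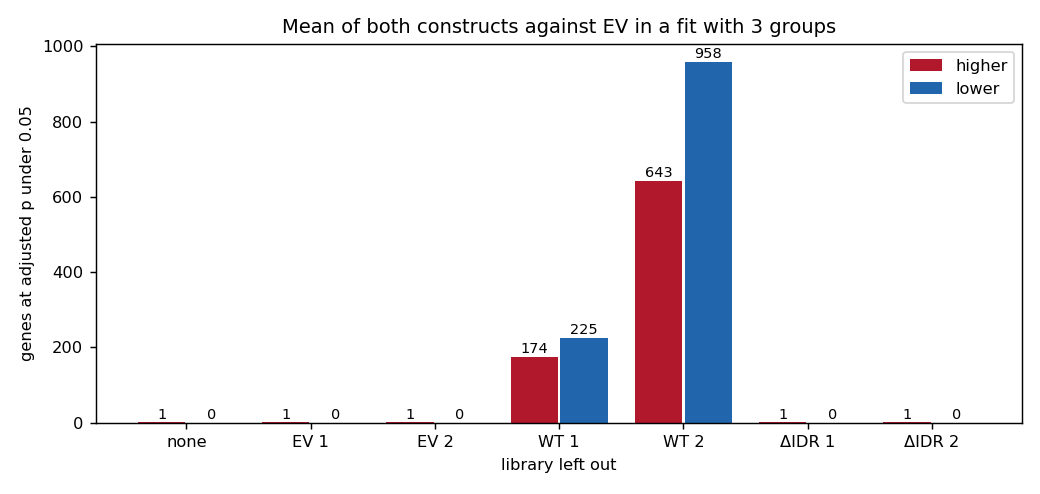
Number of genes (y axis, from 0) at an adjusted p under 0.05 for the mean of both constructs against EV in edgeR's 3-group fit, with no library left out and with each of the 6 libraries left out in turn (x axis). Leaving out either NFIB WT library gives many calls, 174 and 225 or 643 and 958, and every other choice gives 1 higher and 0 lower.

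Differences from EV were small for most separated genes. The median log2 change was 0.30 among the 844 genes above EV, or 1.23-fold, and -0.23 among the 911 below. A change of at least 1.5-fold was seen for 154 of the genes above and 84 of those below. The gap between the groups, taken between the construct library nearest to EV and the EV library nearest to the constructs, had a median of 0.07 on the log2 scale above EV and 0.06 below. It reached 1.5-fold for 16 genes above and 5 below, and 2-fold for 4 and 0. At the edge of the rule, HMGN3 and TRA2B were just inside. HMGN3, a nucleosome-binding protein, measured 84.6 and 91.8 CPM in EV against 81.4, 84.6, 77.9 and 78.1 CPM with the constructs. For TRA2B, a splicing factor, the values were 508 and 521 CPM in EV and 581, 526, 559 and 521 CPM with the constructs. LARS and UPRT were just outside, with UPRT at 16.2 and 16.4 CPM in EV and at 21.0, 17.5, 16.4 and 16.7 CPM with the constructs. Values like these differ by less than the spread between replicates on either side of the edge. Genes above EV had a median level of 16.7 CPM and a median summed exon length of 3041 bases, and genes below 32.5 CPM and 4058 bases, beside 24.1 CPM and 3336 bases for all genes tested. Protein-coding genes made up 91.2% of those above, 92.2% of those below and 89.7% of all tested.

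From here on, 15 genes in each direction are considered, taken by the smallest unadjusted p among separated genes with a mean of at least 1 CPM, because no gene passed the adjusted threshold with all 6 libraries pooled. The same contrast chose them, so their values are a description. The groupings in which they are given were made after the values had been seen.

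Among the genes above EV were ACTA2, MYO16, DNAH10 and TMEM17. ACTA2, smooth muscle alpha-actin, lies at chr10:90694831-90751096 (hg19). It measured 1.36 and 2.15 CPM in EV, 4.65 and 2.96 CPM in NFIB WT, and 6.76 and 6.94 CPM in NFIB ΔIDR. The lowest construct library was thus above the higher EV library, and NFIB ΔIDR lay above NFIB WT. The log2 difference from EV was 1.57 (95% interval 0.64 to 2.50). On the other strand, exons of ACTA2 overlap those of ACTA2-AS1 by 1638 bases and those of FAS by 380 bases. Reads of such overlapping genes cannot be told apart if strand was not used in counting. MYO16, an unconventional myosin of neurons, was at 16.2 and 14.3 CPM in EV. With the constructs it was at 23.1 and 25.2 CPM in NFIB WT and at 23.3 and 23.3 CPM in NFIB ΔIDR, so the constructs lay together, well apart from EV. Its log2 difference from EV was 0.64 (95% interval 0.35 to 0.92). DNAH10, a heavy chain of axonemal dynein, went from 7.64 and 7.77 CPM in EV to 11.1 and 14.3 CPM in NFIB WT and 17.6 and 15.5 CPM in NFIB ΔIDR. Exons of DNAH10 overlap those of DNAH10OS by 1800 bases and those of CCDC92 by 485 bases, both on the other strand. TMEM17, a protein of the transition zone of primary cilia, had 3.69 and 3.94 CPM in EV and 5.80 to 6.90 CPM with the constructs.

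The start regions of 4 named genes are shown here for the letters of the NFI half-site or of an AP-1 site, 2 from genes above EV and 2 from genes below. The sequences are from RefSeq (GRCh38.p14), run 5′ to 3′ on the strand of the gene and lie before its start. Capitals mark TGGCA or its reverse complement TGCCA in MYO16 (chr13:108629408-108629472, plus strand), ACTA2 (chr10:88991397-88991461, minus strand) and LMO4 (chr1:87328706-87328879, plus strand), and the AP-1 letters TGANTCA in CRABP1 (chr15:78340288-78340352, plus strand).
MYO16: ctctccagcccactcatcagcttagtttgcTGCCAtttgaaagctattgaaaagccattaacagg
ACTA2: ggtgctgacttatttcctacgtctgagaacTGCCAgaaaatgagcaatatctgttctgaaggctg
LMO4: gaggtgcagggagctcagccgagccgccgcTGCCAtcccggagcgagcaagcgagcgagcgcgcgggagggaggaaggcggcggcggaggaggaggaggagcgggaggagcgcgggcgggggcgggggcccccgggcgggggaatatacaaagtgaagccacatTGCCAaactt
CRABP1: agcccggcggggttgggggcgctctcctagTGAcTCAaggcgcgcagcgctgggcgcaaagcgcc
On either strand, from 250 bases before to 50 bases after the start, the half-site letters are found in 39.4% of the 10503 promoters of tested genes that RefSeq supplied, and the AP-1 letters in 4.38%. A comparison of promoter letters between separated and other genes is void, because only 77.8% of the tested genes had a promoter sequence. MYO16 and ACTA2 lay above EV and LMO4 and CRABP1 below, so the letters shown stand in genes of either direction, and no binding was measured here.

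Also above EV were ADAMTS4, DSE and PI15. ADAMTS4, a protease that cleaves the proteoglycan aggrecan, was at 13.5 and 14.1 CPM in EV, at 21.7 and 21.3 CPM in NFIB WT, and at 17.6 and 20.1 CPM in NFIB ΔIDR. Its log2 difference from EV was 0.54 (95% interval 0.23 to 0.86). DSE, the epimerase that makes dermatan sulfate, measured 22.8 and 22.7 CPM in EV against 33.7, 29.2, 30.2 and 30.4 CPM with the constructs, and its exons overlap those of TSPYL1 on the other strand by 589 bases. The secreted peptidase inhibitor PI15 went from 32.3 and 36.2 CPM in EV to 65.8 and 46.5 CPM in NFIB WT and to 50.9 and 55.9 CPM in NFIB ΔIDR. NFIB WT replicate 1 was the highest library for DSE and PI15, and both genes stayed above EV without it.

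The other genes above EV had varied roles. ABCA10, an ABC transporter, was at 6.28 and 3.70 CPM in EV and at 9.27 to 14.1 CPM with the constructs. FBXO25, an F-box adaptor of ubiquitin ligases, lay between 4.78 and 5.38 CPM in EV and between 8.50 and 9.34 CPM with the constructs, so its 4 construct values were close together. ADPRHL2, a hydrolase of ADP-ribose bonds, had 9.28 and 11.4 CPM in EV and 14.8 to 16.7 CPM with the constructs. Their log2 differences from EV were 1.15 for ABCA10, 0.81 for FBXO25 and 0.62 for ADPRHL2. RTN4IP1, a mitochondrial protein, was at 7.64 and 8.13 CPM in EV and at 11.1 to 13.3 CPM with the constructs, and shares 1247 exon bases with CRYBG1 on the other strand. VSTM2L went from 2.87 and 2.51 CPM in EV to 6.45 and 7.34 CPM in NFIB WT and 5.95 and 3.84 CPM in NFIB ΔIDR. C1orf127 rested on few reads, with 4 and 3 counts in EV and 11 to 16 counts with the constructs. Like MMP1, it passed the filter on low counts through the construct libraries, so its values are a description. Its level with the constructs was 4.31 times that in EV, with a 95% interval of 1.96 to 11.2 that covers counting error only.

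Among the genes below EV were SYT2, CLSTN2, KCNQ5, CAMK4 and FAM155B. SYT2, a calcium sensor of synaptic vesicles, was at 16.1 and 18.04 CPM in EV, at 10.0 and 11.6 CPM in NFIB WT, and at 11.2 and 12.1 CPM in NFIB ΔIDR. Its log2 difference from EV was -0.60 (95% interval -0.92 to -0.28), and SYT2 shares 2111 exon bases with PPP1R12B on the other strand. CLSTN2, a synaptic member of the cadherin superfamily, measured 143 and 134 CPM in EV, 100.2 and 115 CPM in NFIB WT, and 89.0 and 92.6 CPM in NFIB ΔIDR. KCNQ5, a voltage-gated potassium channel, went from 97.5 and 88.4 CPM in EV to 68.4 to 75.3 CPM with the constructs. In all of these every construct library lay below both EV libraries, and the constructs overlapped with each other for SYT2 but not for CLSTN2 or KCNQ5. CAMK4, a calcium- and calmodulin-dependent kinase, had 6.14 and 6.21 CPM in EV and 2.83 to 4.06 CPM with the constructs. FAM155B measured 10.2 and 9.68 CPM in EV and 6.57 to 6.94 CPM with the constructs, the narrowest spread of construct libraries among the 30 genes. The log2 differences from EV were -0.48 for CLSTN2, -0.38 for KCNQ5, -0.88 for CAMK4 and -0.57 for FAM155B.

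Also below EV were MDK, CRABP1, LMO4, FAT3, PCSK5 and TMEM119. MDK, the heparin-binding growth factor midkine, was at 47.9 and 47.7 CPM in EV, at 27.0 and 39.5 CPM in NFIB WT, and at 30.03 and 24.5 CPM in NFIB ΔIDR. NFIB WT replicate 2 was the construct library nearest to EV, and the log2 difference was -0.66 (95% interval -1.04 to -0.27). CRABP1, which binds retinoic acid in the cytoplasm, had 35.1 and 37.2 CPM in EV and 24.7 to 29.0 CPM with the constructs. LMO4, a LIM-only cofactor of transcription, measured 39.0 and 40.9 CPM in EV and 25.8 to 31.8 CPM with the constructs. All 4 construct libraries were below EV for both, with log2 differences of -0.47 for CRABP1 and -0.48 for LMO4. FAT3, a giant atypical cadherin, went from 28.4 and 30.9 CPM in EV to 21.9, 18.7, 19.9 and 15.5 CPM with the constructs. PCSK5, a proprotein convertase, was at 28.4 and 25.6 CPM in EV, 19.0 and 20.5 CPM in NFIB WT, and 16.2 and 14.3 CPM in NFIB ΔIDR. TMEM119, a membrane protein known from osteoblasts and microglia, had 16.9 and 19.6 CPM in EV, 12.7 and 12.4 CPM in NFIB WT, and 9.74 and 8.56 CPM in NFIB ΔIDR. For PCSK5 and TMEM119 the NFIB ΔIDR libraries lay below those of NFIB WT.

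TEX15, which acts in male germ cells in meiosis and in silencing of transposons, had the most counts of the 15 genes below EV. It measured 699 and 684 CPM in EV, 502 and 530 CPM in NFIB WT, and 545 and 591 CPM in NFIB ΔIDR, a log2 difference of -0.35 (95% interval -0.55 to -0.15). The membrane proteins TMEM255A and LHFPL2 measured 64.9 to 69.3 CPM and 73.5 to 74.3 CPM in EV, against 41.7 to 51.3 CPM and 51.1 to 61.0 CPM with the constructs.

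**Figure D3:**
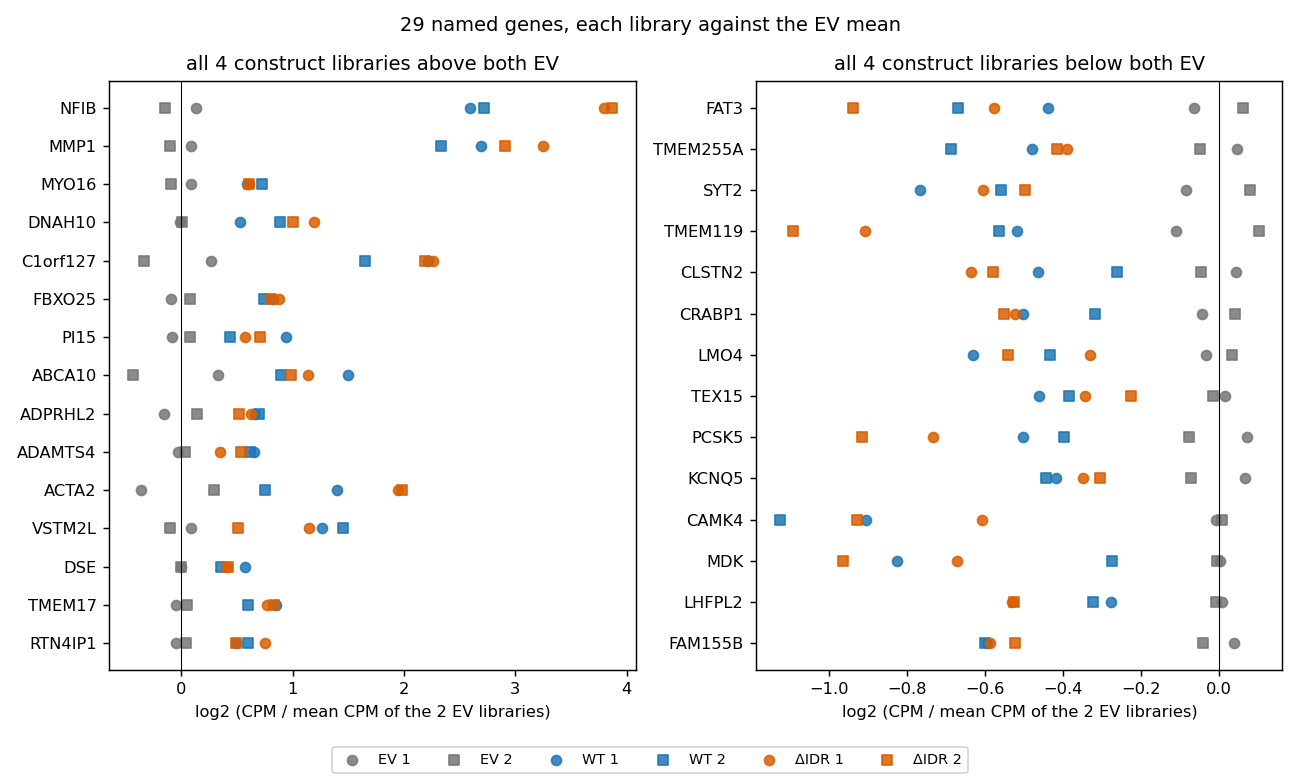
Each library's CPM relative to the mean of the 2 EV libraries on the log2 scale (x axis) for the 15 named genes above EV (left) and 14 of those below (right), 1 gene a row, with 1 symbol a library. By the rule that chose them the construct libraries do not overlap with EV, and all 4 lie more than 1 from the EV mean for NFIB, MMP1 and C1orf127.

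Whether the constructs gave the same change was measured by setting NFIB WT against NFIB ΔIDR directly. The choice of genes was not independent of this contrast. The pooled p counts a gap between the constructs as spread, so a small one favours genes whose constructs agree. Across all genes, 1446 differed between the constructs (10.7%) at an edgeR adjusted p under 0.05. Of the 1755 separated genes, 41 differed (2.34%), 21 of those above and 20 of those below EV. Separation leaves out genes where the constructs lie on opposite sides of EV or where either overlaps with it. The lower share is therefore a description and not a test. A p that misses the threshold does not show that the constructs act alike, and the interval of their difference lay within 1.5-fold for 1141 separated genes (65%), beside 51.1% of all genes tested. The other 614 separated genes could differ by more than 1.5-fold. Separation bears on the 65% as well, so that share is also a description. NFIB WT was farther from EV than NFIB ΔIDR for 448 of the 844 genes above and for 510 of the 911 below. The library nearest to EV was most often NFIB WT replicate 2, for 263 of the genes above and 296 of those below.

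Among the 30 named genes, NFIB itself differed between the constructs and the other 29 did not pass the threshold. For 19 of the 30 the interval of the difference lay within 1.5-fold. Both counts are a description, because the pooled p that ranked these genes favours constructs that agree. MYO16 differed by a log2 of 0.06 (95% interval -0.22 to 0.33) and DSE by 0.05 (95% interval -0.21 to 0.31). CRABP1 had 0.13 (95% interval -0.14 to 0.40), LMO4 -0.10 (95% interval -0.38 to 0.19) and TEX15 -0.14 (95% interval -0.31 to 0.04). For these 5 genes a difference between the constructs beyond 1.5-fold was outside the interval. Intervals were wide where counts were low, at -1.40 to 0.24 for MMP1 and -1.10 to 0.53 for C1orf127. For ACTA2 the difference was -0.86 (95% interval -1.46 to -0.27, edgeR adjusted p = 0.0659), with NFIB ΔIDR higher. The intervals of DNAH10, TMEM119, CLSTN2, PCSK5 and LHFPL2 also left out 0, each with NFIB ΔIDR farther from EV, although their adjusted p values ranged from 0.111 to 0.166.

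**Figure D4:**
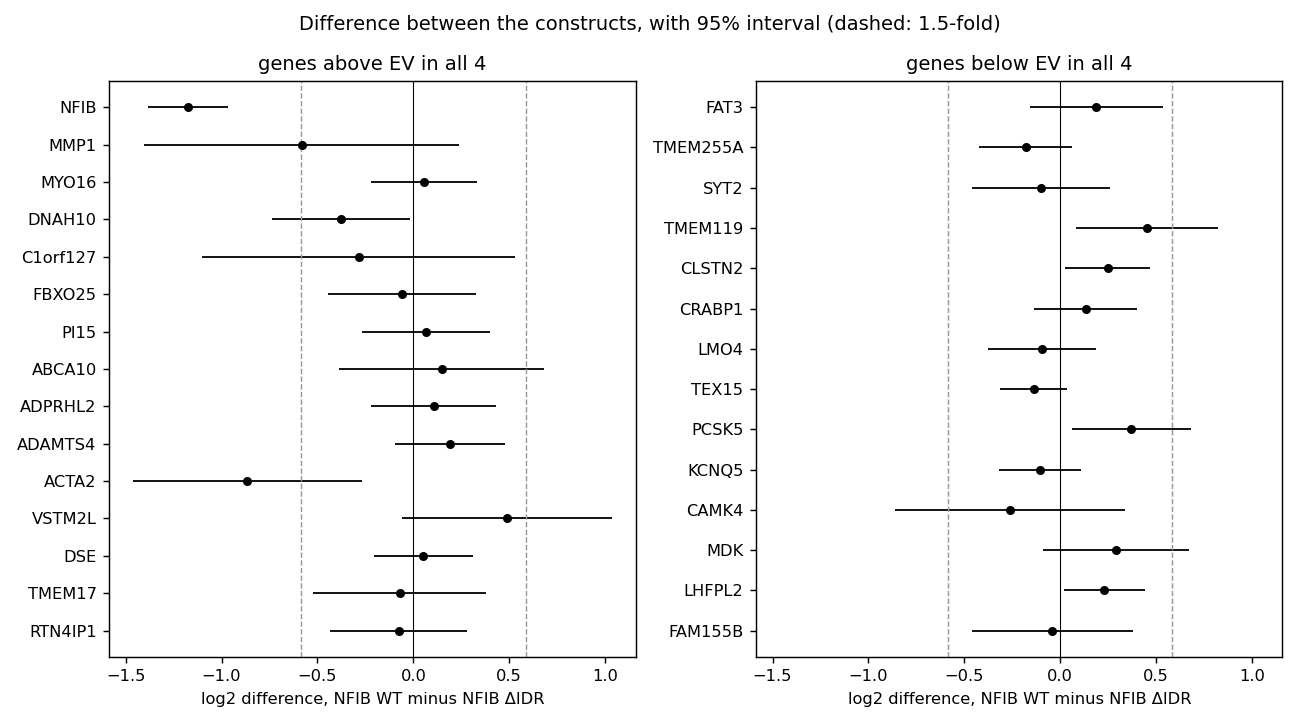
Log2 difference of NFIB WT minus NFIB ΔIDR (x axis) with its 95% interval for 29 of the named genes, 15 above EV on the left and 14 below on the right, with dashed lines at 1.5-fold. NFIB lies beyond the line, 18 of the 29 intervals lie within the lines, and those of MMP1, C1orf127 and ACTA2 are the widest on the left.

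The 43 gene lists, chosen for the tissue and the factor, had no member at an adjusted p under 0.05 in the pooled fit of 6 libraries. They are described by how many members were separated, to be read against 6.25% above and 6.75% below for all genes, and by the median log2 change, which was 0.01 over all genes. In the nuclear factor I family, the other 3 members were tested. NFIA was separated below EV, at 94.2 and 84.5 CPM in EV, 41.4 and 35.3 CPM in NFIB WT, and 83.5 and 75.9 CPM in NFIB ΔIDR. The NFIB ΔIDR libraries reached almost to EV, and the constructs differed by a log2 of -1.06 (edgeR adjusted p = 0.000908), and against EV the log2 difference was -1.22 for NFIB WT but -0.16 for NFIB ΔIDR. NFIX was at 16.4 and 15.5 CPM in EV and 16.0 to 23.1 CPM with the constructs, overlapping with EV. NFIC overlapped with EV as well, at 19.2 and 18.4 CPM against 12.6 to 27.1 CPM.

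In the lists of neuronal and axon guidance genes, more members were separated below EV than above it. The same held for other lists, among them Ewing sarcoma markers, growth factor genes and hypoxia targets. Of 19 neuronal genes tested, 0 were above and 6 below EV, with a median log2 change of -0.01. POU4F1, a transcription factor of sensory neurons, measured 33.6 and 33.5 CPM in EV and 23.6 to 28.5 CPM with the constructs. CNTNAP2, a neurexin-like adhesion protein, had 456 and 452 CPM in EV and 366 to 407 CPM with the constructs. GAP43, a protein of growth cones, was at 29.3 and 30.1 CPM in EV, 9.45 and 18.03 CPM in NFIB WT and 27.6 and 23.8 CPM in NFIB ΔIDR, and differed between the constructs by a log2 of -0.88 (edgeR adjusted p = 0.0311). Without NFIB WT replicate 1, 1 of the 19 was called higher and 3 lower, where 1.29% and 1.67% of all genes were. Without replicate 2 the counts were 0 and 4, where 4.76% and 7.1% of all genes were called. Calls of the lists below in these fits are read against the same shares. Of 35 axon guidance genes, 1 was above and 7 below EV, with a median of -0.09. EFNA1, an ephrin ligand, measured 13.6 and 12.1 CPM in EV and 8.52 to 9.30 CPM with the constructs. EPHB1, an ephrin receptor, had 17.5 and 16.4 CPM in EV and 10.6 to 14.1 CPM with the constructs. The netrin receptor UNC5D was the member above, at 4.50 and 3.35 CPM in EV against 5.55 to 9.75 CPM.

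In the Wnt pathway, 0 of 34 genes tested lay above and 6 below EV, with a median log2 change of -0.02. ROR2, a receptor of non-canonical Wnt ligands, was at 2.18 and 1.91 CPM in EV and at 0.515 to 1.08 CPM with the constructs. With 16 counts in each EV library and 4 to 8 with the constructs, ROR2 passed the filter on low counts through EV. Its log2 difference of -1.32 is a description only. DKK3, a secreted protein of the dickkopf family, had 6.96 and 5.86 CPM in EV and 3.60 to 4.60 CPM with the constructs. LEF1, a nuclear effector of the pathway, measured 76.3 and 67.8 CPM in EV and 53.8 to 65.5 CPM with the constructs. ROR2 was not called in either fit without an NFIB WT library, with log2 differences of -1.49 without replicate 1 and -1.23 without replicate 2. Among 30 growth factor ligands and receptors, 3 were above and 6 below, with a median of -0.07. VEGFA, the main factor of blood vessel growth, lay at 72.1 and 65.7 CPM in EV and at 53.3 to 59.2 CPM with the constructs. PDGFC, a ligand of PDGF receptors, had 43.5 and 46.0 CPM in EV and 31.3 to 41.5 CPM with the constructs. PGF, a VEGF relative, was above at 2.05 and 2.75 CPM in EV, 7.05 and 6.57 CPM in NFIB WT and 3.38 and 4.13 CPM in NFIB ΔIDR, and NFIB WT exceeded NFIB ΔIDR by a log2 of 0.86 (edgeR adjusted p = 0.0449). Without NFIB WT replicate 1, 1 of the 30 was called higher and 5 lower (beside 1.29% and 1.67% of all genes), and without replicate 2 it was 2 and 6 (beside 4.76% and 7.1%).

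Mesenchymal transcription factors had 0 of 23 above and 3 below EV, with a median of 0.04. ZEB1, a repressor of epithelial genes, was at 38.1 and 43.6 CPM in EV, 27.0 and 29.0 CPM in NFIB WT and 34.2 and 32.6 CPM in NFIB ΔIDR. GLI2, a hedgehog effector, measured 11.7 and 10.4 CPM in EV and 7.58 to 9.14 CPM with the constructs. PRRX1, a homeobox factor of limb mesenchyme, had 66.2 and 65.7 CPM in EV and 49.1 to 60.8 CPM with the constructs. Cell adhesion genes were split, with 4 of 17 above and 4 below. ALCAM, an immunoglobulin-family adhesion protein, was at 331 and 330 CPM in EV and at 265 to 284 CPM with the constructs. Its relative NCAM2 had 123 and 128 CPM in EV and 90.0 to 117 CPM with the constructs. JAM2, a junctional adhesion protein, was above, with a mean of 3.33 ± 0.949 CPM (SD, n = 4) against 1.71 CPM in EV.

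Among matrix and contractile lists, the shares above EV were 8.57% for structural matrix, 5.56% for proteases and 18.2% for contractile genes. Below EV they were 0%, 5.56% and 4.55%, beside 6.25% above and 6.75% below for all genes. Of 35 structural matrix genes, 3 were above and 0 below, with a median of 0.04, and 16 differed between the constructs (beside 10.7% of all genes). MGP, an inhibitor of calcification, had 2.59 and 2.03 CPM in EV, 15.6 and 17.5 CPM in NFIB WT and 2.44 and 1.33 CPM in NFIB ΔIDR, and so did not meet the rule. COL3A1, a fibrillar collagen, was at 94.5 and 107 CPM in EV, 130 and 153 CPM in NFIB WT and 106 and 106 CPM in NFIB ΔIDR, and overlapped with EV as well. Of 18 matrix proteases and inhibitors, 1 was above, MMP1, and 1 below. Among 22 contractile actin and YAP target genes, 4 were above and 1 below, with a median of 0.05. CTGF, a secreted target of YAP, measured 4.09 and 4.30 CPM in EV, 7.50 and 7.47 CPM in NFIB WT and 4.87 and 6.94 CPM in NFIB ΔIDR. CRIM1, a membrane protein that binds BMPs, was the member below, at 92.5 and 85.2 CPM in EV and 71.6 to 77.1 CPM with the constructs. Without NFIB WT replicate 1, 5 structural matrix genes were called higher and 0 lower, and 3 contractile and YAP target genes higher and 1 lower. Without replicate 2 the counts were 5 and 3 for the structural matrix, with the basement membrane genes COL4A1, COL4A2 and LAMB1 lower, and 3 and 5 for contractile and YAP target genes.

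Targets of the EWS-FLI1 fusion were separated in both directions. Of 37 activated targets, 3 were above and 6 below, with a median of 0.03. PRKCB, a protein kinase C used as a Ewing sarcoma marker, was at 440 and 458 CPM in EV and at 369 to 425 CPM with the constructs. GLI1 measured 7.23 and 8.48 CPM in EV and 4.12 to 6.79 CPM with the constructs. LIPI, a lipase, lay above at 76.6 and 72.2 CPM in EV, 126 and 103 CPM in NFIB WT and 80.6 and 79.1 CPM in NFIB ΔIDR. Of 27 repressed targets, 3 were above and 1 below, with a median of 0.29 (0.25 for NFIB WT alone and 0.14 for NFIB ΔIDR alone). S100A10, an annexin partner, had 7.10 and 7.77 CPM in EV and 8.12 to 16.6 CPM with the constructs. Without NFIB WT replicate 1, 5 of the 37 activated targets were called higher and 1 lower, and 3 of the 27 repressed targets higher and 1 lower. The counts without replicate 2 were 9 and 6, and 5 and 3.

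Some lists differed between the constructs or between the NFIB WT libraries. Of 26 cholesterol synthesis genes, 1 was above and 1 below EV, although 11 were called lower without NFIB WT replicate 1 and 13 without replicate 2. The median of their log2 changes was 0.05 for NFIB WT and -0.49 for NFIB ΔIDR. Between the constructs 15 of the 26 differed, beside 10.7% of all genes. HMGCS1, an early enzyme of the pathway, measured 452 and 422 CPM in EV, 426 and 389 CPM in NFIB WT and 263 and 252 CPM in NFIB ΔIDR. SQLE, squalene epoxidase, lay at 606 and 600 CPM in EV, 568 and 544 CPM in NFIB WT and 407 and 421 CPM in NFIB ΔIDR. Small structural RNAs had 4 of 14 above and 0 below, with a median of 0.44, and 1 was called without NFIB WT replicate 1 against 9 without replicate 2. RPPH1, the RNA of RNase P, was at 709 and 773 CPM in EV and at 1164, 951, 995 and 789 CPM with the constructs, the first of these in NFIB WT replicate 1. Ribosomal protein genes had 3 of 70 above and 0 below, and 0 were called lower without NFIB WT replicate 1 against 27 without replicate 2. Of 44 replication-dependent histone genes, 5 were above and 0 below. Without NFIB WT replicate 1, 5 of them were called higher and 0 lower, and without replicate 2 it was 7 and 7. The median of their log2 changes was 0.16 for NFIB WT and -0.15 for NFIB ΔIDR. Between the constructs 20 of the 44 differed, beside 10.7% of all genes. HIST1H3F had 57.5 and 60.3 CPM in EV and 65.2 to 87.3 CPM with the constructs. HIST1H2BH measured 48.9 and 47.3 CPM in EV, 52.0 and 59.8 CPM in NFIB WT and 67.0 and 88.1 CPM in NFIB ΔIDR, and histone genes are alike in sequence, so reads may be split between them.

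Members of the remaining lists were separated in either direction. In fatty acid metabolism, 4 of 25 were above and 3 below. ANGPTL4, which inhibits lipoprotein lipase, measured 8.60 and 6.57 CPM in EV, 25.0 and 25.8 CPM in NFIB WT and 9.06 and 9.60 CPM in NFIB ΔIDR. CPT1A, the carnitine transferase of fatty acid oxidation, had 184 and 191 CPM in EV, 257 and 273 CPM in NFIB WT and 206 and 195 CPM in NFIB ΔIDR. Both met the rule with NFIB ΔIDR close to EV, and both differed between the constructs, by a log2 of 1.45 for ANGPTL4 and 0.40 for CPT1A. Of 27 interferon response genes, 4 were above and 3 below. SAMHD1, a dNTP hydrolase, measured 11.1 and 8.60 CPM in EV and 12.7 to 15.4 CPM with the constructs. IFITM3, a restriction factor of virus entry, had 44.4 and 47.2 CPM in EV and 49.6 to 60.8 CPM with the constructs. Of 38 TGF-beta and BMP pathway genes, 1 was above and 2 below. ID1, a direct BMP target, was the member above, at 10.8 and 9.44 CPM in EV and 13.2 to 20.6 CPM with the constructs. Among 15 MAPK feedback genes, 2 were above and 0 below, with PHLDA1 at 3.14 and 2.87 CPM in EV and 3.75 to 6.36 CPM with the constructs. G1/S and replication genes had 3 of 40 above and 6 below, mitosis genes 2 of 39 in each direction, and oxidative phosphorylation genes 2 of 41 above and 0 below, with medians between -0.03 and -0.01. Hypoxia targets had 1 of 26 above and 5 below, HOX genes 2 of 26 above and 3 below, and genes of the unfolded protein response 4 of 22 above and 1 below. Of the mitochondrially encoded genes 0 were tested.

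**Figure D5:**
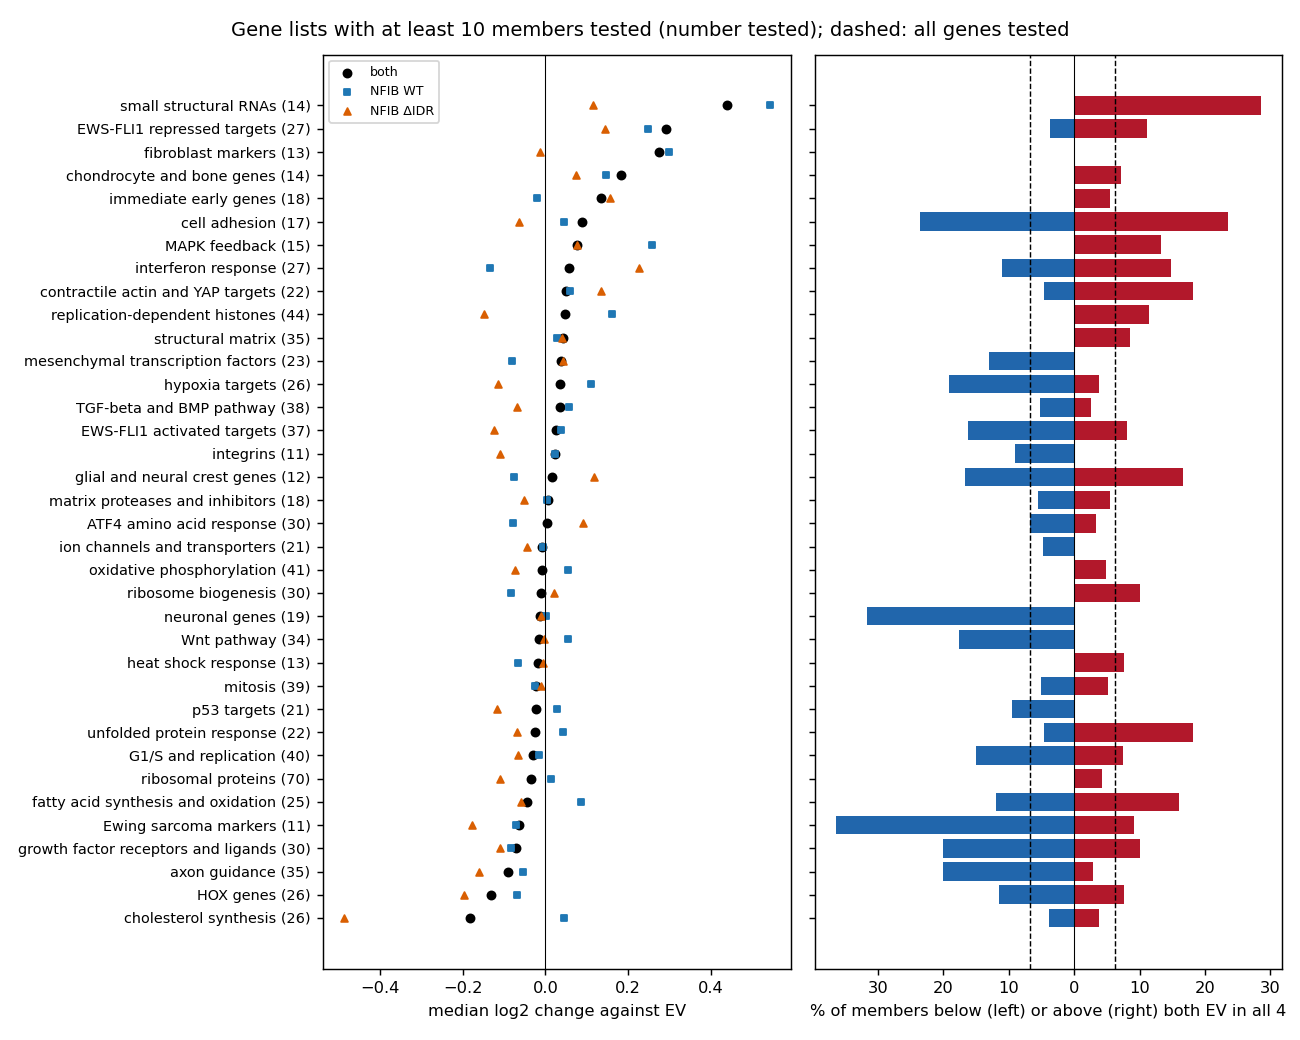
Left, median log2 change against EV (x axis) of each gene list with at least 10 members tested, for both constructs together and for each construct. Right, the percent of members with all 4 construct libraries below (leftward) or above (rightward) both EV libraries, with dashed lines at 6.75% and 6.25% for all genes tested. Several lists reach past the line on the left. They include neuronal (31.6%), Wnt (17.6%) and axon guidance (20%) genes, Ewing sarcoma markers (36.4%) and cell adhesion genes (23.5%). Cholesterol synthesis genes have medians of 0.05 and -0.49 with the separate constructs.

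At the bottom of the range, 56 genes had 0 counts in both EV libraries and at least 1 in all 4 construct libraries, and 65 genes had at least 1 in both EV libraries and 0 in all 4. The first set had at most 18 counts over its 4 construct libraries, reached by SNORA5A, a small nucleolar RNA within a host gene. With 0 counts in a library, a true count of up to 3 is allowed, so these genes give no reliable fold. The germline gene MAGEC2 was low in EV, at 0.682 and 0.358 CPM, and lay between 1.16 and 2.21 CPM with the constructs. It passed the filter on low counts through the construct libraries, so these values are a description. Of 5 germline genes tested, 1 was above and 2 below EV.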

How the data were processed

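RNA-seq libraries of SKNMC cells were made with a total RNA kit. The authors converted reads with CASAVA 2.19, aligned them to hg19 with STAR 2.4.0h and used featureCounts to assign fragments to RefSeq genes. The deposited values are these counts, not normalized. How strand, molecular identifiers and multi-mapping reads were handled was not given in the sources used here. The deposited start and end of each gene are a window of 2000 bases around its start site, so gene coordinates are from the GENCODE annotation of hg19. Low genes were removed by filterByExpr with a minimum count of 10 and a minimum total of 15. TMM factors and quasi-likelihood tests were computed in edgeR 4.0.16 (R 4.3.3), with Benjamini-Hochberg adjustment over all genes tested. The 4 construct libraries formed one group and the 2 EV libraries the other. Alternatives were the mean of the constructs in a 3-group fit, DESeq2 1.42.0 and other scalings, filters and libraries. CPM values are TMM-scaled, and 95% intervals are from the quasi-likelihood F statistic. The scripts were tested on simulated data. The rule named NFIB, MMP1 and FN1, up to 15 genes per direction among separated genes at an adjusted p under 0.05 with a mean of at least 1 CPM, filled by the smallest unadjusted p, and up to 3 members of each list by the smallest p. The genes, lists and tests were chosen with earlier results of these data known. RefSeq promoters matched 10503 of the 13501 genes tested. No group was left out. The result of 1 named gene is not reported here.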

Additional observations from a re-analysis of the deposited data

Results flagged for a closer look

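Over all genes tested, 1446 (10.7%) differed between the constructs in edgeR's direct comparison (adjusted p under 0.05). Only the 31 named genes (FN1 included) and 48 list members were looked at for this section. Those of them that differed are given as log2 of NFIB WT minus NFIB ΔIDR. NFIB ΔIDR was higher for NFIB (-1.17), NFIA (-1.06), NFIC (-0.67), FN1 (-0.45), GAP43 (-0.88), HIST1H2BH (-0.47) and the epithelial splicing factor ESRP1 (-1.56). NFIB WT was higher for MGP (3.11), FOS (1.51), ANGPTL4 (1.45), PGF (0.86), the fibroblast protease FAP (0.71), HMGCS1 (0.66), LIPI (0.51), SQLE (0.43), COL3A1 (0.41) and CPT1A (0.40).

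Among the 31 named genes (FN1 included) and 48 list members looked at, 5 had 1 of the 4 construct libraries set off from the other 3. This was measured as the gap of that library to the nearest other one over the whole range. The values were 0.894 for MYO16, 0.869 for C1orf127, 0.835 for FAM155B, 0.849 for UNC5D and 0.938 for ID1. For MYO16 and FAM155B that range was narrow, at 23.1 to 25.2 CPM and 6.57 to 6.94 CPM, so the library set off was still near the others. About 1 in 20 genes would be picked out this way by chance, and 5 among the genes looked at is near that share. For UNC5D the library apart was NFIB WT replicate 1, at 9.75 CPM, and for ID1 it was NFIB ΔIDR replicate 1, at 20.6 CPM. The 4 construct libraries hold 2 groups, which differ in other genes.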

How the results depend on the processing

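With 6 libraries, the count of genes higher with both constructs went from 0 to 1 with the mean of the constructs in a 3-group fit, with DESeq2 and with no filter on low counts, each time NFIB. In the edgeR test of 4 libraries against 2, an unadjusted p under 0.05 with a fold of at least 1.5 was also tried. Of the 13501 genes tested, 105 were then higher and 46 lower. The study used these thresholds with DESeq2 and did not describe pooling the constructs, so its counts are of another kind. Leaving out 1 library at a time gave 0 to 643 genes higher and 0 to 958 lower over both fits, with 174 and 225 in the 3-group mean without NFIB WT replicate 1. Genes above EV in all construct libraries numbered 1162 to 2081 and those below 1173 to 1965 with 1 library left out, where fewer libraries must agree. Library totals alone gave 990 above and 772 below, and no filter 1130 and 1280. With 6 libraries, called genes that differ between the constructs numbered 0, or 1 (NFIB) with the 3-group mean or DESeq2. How many of the genes called in the 3-group mean with 1 library left out differ between the constructs was not counted. Separated genes that differ between the constructs numbered 41, against 19 in DESeq2 and 4 to 244 with 1 library left out, and the cause was not tested. NFIC ranged from -0.11 to 0.24 with 1 library left out and was reversed without NFIB ΔIDR replicate 1, and in the 3-group mean it was reversed at -0.043 without that library and -0.10 without NFIB WT replicate 2. The sources used here do not say what a replicate number stands for. Deviations of libraries with the same number correlated at 0.35 (EV and NFIB WT), 0.075 (EV and NFIB ΔIDR) and 0.18 (NFIB WT and NFIB ΔIDR), so a shared batch is possible but not shown, and the numbers were not taken as pairs. With the replicate block, 0 genes were higher and 0 lower, and 181 and 150 at an unadjusted p under 0.05. Low counts limit MMP1 and C1orf127.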
